A study of Mus musculus with 22 samples.

Results

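Among germinal center B cells of mouse spleen, 1862 of 8873 cells (all cells of the gene table) carried more than 10% of their transcripts on the mitochondrial genome. These cells, called high-mt cells here, were chosen by that measured share, counted in unique molecular identifiers (UMIs, 1 per captured transcript) over the 13 genes whose symbols begin with mt-, and by having at least 200 detected genes, which every cell of the table did. Their mitochondrial values are therefore a description and were not tested. They made up 1028 of 3765 cells in library NP 1 (27.3%, exact 95% interval 25.9 to 28.8), 246 of 2104 in NP 2 (11.7%, 10.3 to 13.1) and 588 of 3004 in OVA 1 (19.6%, 18.2 to 21.0). High-mt cells were paired with cells of 10% or less from the same library that had nearly the same total UMIs, and 1292 of them found such a partner (702, 223 and 367 in NP 1, NP 2 and OVA 1). Intervals here cover counting error only.

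All 3 libraries came from 8-week-old male C57BL/6 mice. The cells of NP 1 and NP 2 were germinal center B cells (B220+, Fas high, GL-7 high) that also bound the hapten NP, taken 13 days after immunization with 100 μg NP-KLH, a hapten coupled to a carrier protein. The cells of OVA 1 were total germinal center B cells of mice given ovalbumin (OVA), with no day given in the labels. Both antigens were mixed with alum and 1 μg lipopolysaccharide, and both sorts left out cells stained by the dead-cell dye 7AAD. The labels do not say how many mice made up a library, so the p-values rest on 3 libraries only and not on mice. Those of edgeR rest mostly on a spread pooled over genes. A paired immunoglobulin library was read from the same cells.

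The mitochondrial genome encodes subunits of the respiratory chain, and its transcripts stay inside the organelle. Most other messenger RNAs lie free in the cytoplasm, while some long noncoding RNAs such as Malat1 are kept in the nucleus. In single-cell work a high mitochondrial share is commonly used to discard cells, on the view that a cell with a leaking membrane loses cytoplasmic RNA before mitochondrial RNA. Germinal center B cells divide in a dark zone, are selected in a light zone, and die by apoptosis in large numbers, so cell cycle, zone and apoptosis genes were followed in the high-mt cells.

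Set against all cells with 10% or less, high-mt cells held about as many mitochondrial transcripts and fewer transcripts in all other genes together. Their median mitochondrial UMI number was 327 in NP 1, 309 in NP 2 and 262.5 in OVA 1, against 330, 333 and 239 in the cells with 10% or less. Their median of all other UMIs was 1801.5, 1588.5 and 1288.5, against 5341, 7299 and 7112.5. As ratios of high-mt cells over the rest, the medians of other UMIs stood at 0.337, 0.218 and 0.181. Those of mitochondrial UMIs were 0.991 in NP 1 and 0.928 in NP 2 and above 1 in OVA 1. In the pairs, matched on total UMIs, the mitochondrial medians were 354, 312 and 291 in high-mt cells, against 169, 88 and 108 in matched cells. The gene that differed most by share of mitochondrial UMIs was mt-Cytb in NP 1 (11.7% in high-mt cells and 12.2% in the rest), mt-Co1 in NP 2 (16.1% and 15.2%) and mt-Nd1 in OVA 1 (3.02% and 3.30%).

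**Figure D1:**
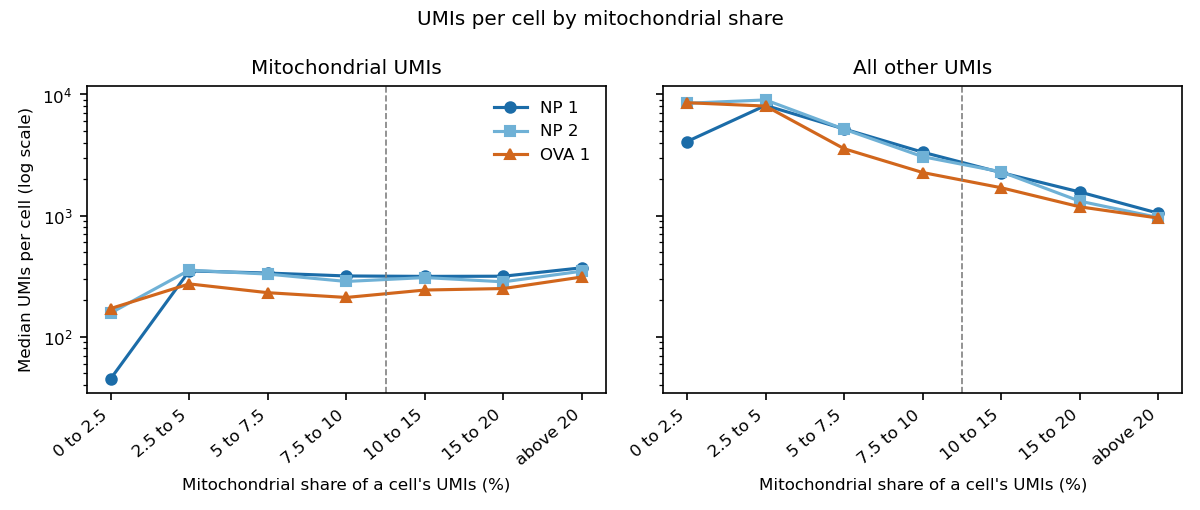
Median UMIs per cell on a log axis, mitochondrial on the left and all other on the right, by the mitochondrial share of the cells, for the 3 libraries; the dashed line marks the 10% threshold. To the right of 2.5% the mitochondrial medians stay between 211 and 371, while the medians of other UMIs decline to 1046 in NP 1, 963.5 in NP 2 and 954 in OVA 1 above 20%.

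Cells on the 2 sides of the 10% threshold lay near each other. Cells just inside it (10 to 11%) numbered 147, 47 and 59 in NP 1, NP 2 and OVA 1, with medians of 2569, 2648 and 2028 other UMIs. Cells just outside it (9 to 10%) numbered 196, 29 and 75, with medians of 3108.5, 2595 and 2092. Malat1 stood at 5444, 8316 and 11453 UPM just inside, against 4710, 7744 and 10430 just outside. UPM here means UMIs summed over cells and scaled to 1000000 UMIs other than mitochondrial and immunoglobulin ones.

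The cells carried the markers of the sorted type. The 14 germinal center B cell markers together reached 12151, 11320 and 11524 UPM in high-mt cells of NP 1, NP 2 and OVA 1, against 11843, 10582 and 11022 in the matched cells, and none of the 14 was at 0. Of 15 T cell markers 10 had no UMI in any high-mt cell, among them Cd3e, Trbc1, Trbc2, Cd4 and Cd8a, and 8 of 9 NK cell markers had none. The 13 myeloid markers summed to 183, 232 and 297 UPM in high-mt cells, against 455, 505 and 3187 in matched cells of NP 1, NP 2 and OVA 1, and none was at 0 in either arm. Of the 14 markers of tingible body macrophages, which clear dying germinal center cells, Apoe gave most of the UMIs, with 783, 1185 and 497 UPM in high-mt cells, against 761, 820 and 499.9 in matched cells. The other 13 together, C1qa, C1qb and C1qc among them, had 38.3, 32.2 and 51.9 UPM in high-mt cells, against 38.9, 107 and 195, and 2 of them were at 0 in high-mt cells. The barcodes of 15 high-mt cells stood in more than 1 library, of 31 such barcodes in all.

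For the gene comparison, raw counts were summed over the cells of each library and arm, without the mt- and immunoglobulin genes, and tested with edgeR, with the library as a block. Of 7412 genes tested, 614 were higher and 980 lower in high-mt cells at an adjusted p under 0.05, which is 8.28% and 13.2% of the genes tested, or 21.5% in both directions. The same direction was seen in all 3 libraries for 1524 of these 1594 genes, and the median log2 fold over all tested genes was 0.02. Levels of single genes are given below as CPM, counts scaled to 1000000, after TMM scaling. Log2 folds are high-mt over matched, with a standard error (SE) derived from the edgeR test. That SE is the absolute log2 fold over the square root of the test's F statistic, and is not a spread measured over the 3 libraries. The matched cells are the UMI-poor part of the cells with 10% or less, so the folds describe high-mt cells against UMI-poor cells and not against typical ones. The count moved with the libraries and the tool, and was 186 higher and 551 lower without NP 1, 243 higher and 605 lower without OVA 1, 68 higher and 348 lower with DESeq2, and 57 higher and 171 lower without the library block.

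The 12 genes with the largest rises are given first, each with what it is known for where that is clear. Ncapg2, a condensin II subunit that compacts chromosomes (chromosome 12, 116405351 to 116463532 in GRCm38), had 66.7, 96.9 and 70.7 CPM in high-mt cells of NP 1, NP 2 and OVA 1, against 18.1, 13.3 and 23.9 in matched cells. The arms did not overlap, and the log2 fold was 1.93 ± 0.23 (SE, n = 3 libraries, edgeR adjusted p = 3.74e-09). Clspn, which carries the replication checkpoint signal to Chk1, had 118, 122 and 136 CPM in high-mt cells, against 41.9, 31.9 and 49.2 in matched cells. Its log2 fold was 1.55 ± 0.18 (edgeR adjusted p = 1.54e-09). The other genes with the largest rises were E2f7 and E2f8, atypical E2F repressors of the cell cycle (log2 fold 1.87 and 1.55), the replication factor Mcm10 (1.79), the linker histone Hist1h1d (1.85), Hist1h2bj (1.66), the cytokinesis kinase Cit (1.44), the cohesin protector Cdca5 (1.43) and Foxm1, a transcription factor of mitotic genes (1.43). Enkd1 (1.55) and Gm47283 (1.70) complete the 12. Cdca5 did not pass without NP 1, and against all cells with 10% or less the log2 folds of Cdca5 (-0.20) and E2f8 (-0.26) were below 0.

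Of 40 S phase genes, 39 were tested, and 27 rose and none fell in high-mt cells, with a median log2 fold of 0.61. Summed, they reached 5110, 3972 and 5375 UPM in high-mt cells of NP 1, NP 2 and OVA 1, against 3037, 2722 and 2677 in matched cells. The high-mt sums lay above the matched sums in every library. The count of S phase genes that rose was 10 without NP 1 and 15 without OVA 1, with medians of 0.59 and 0.61. Lig1, the ligase of Okazaki fragments, rose by 1.18 ± 0.16 and Dtl, an adaptor of a replication-coupled ubiquitin ligase, by 1.18 ± 0.17 on the log2 scale. Prim1, a primase subunit, had 127, 91.9 and 119 CPM in high-mt cells, against 60.6, 53.2 and 42.2 in matched cells.

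Histone genes moved the same way. Of 28 cluster histones 14 were tested, and 12 rose and none fell, with a median log2 fold of 0.84. Hist1h2ap had 877, 137 and 368 CPM in high-mt cells, against 293, 90.4 and 128 in matched cells, a log2 fold of 1.41 ± 0.16 (edgeR adjusted p = 4.03e-10). Hist1h1b rose by 0.84 ± 0.18, but in NP 2 it stood at 144 CPM in high-mt cells, against 146 in matched cells, and it did not pass without OVA 1. Without NP 1 the list had 7 of 13 higher and without OVA 1 it had 4 of 18. Copies of these genes are nearly identical, so the split of reads among them is uncertain.

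Most called genes of the G2 and M phase list rose. Of 45 tested members 21 rose (46.7%) and 4 fell (8.89%), with a median log2 fold of 0.52. Over all genes tested 8.28% rose and 13.2% fell, so the share of falls lay below that of all genes. Mki67, which coats mitotic chromosomes, had 758, 688 and 745 CPM in high-mt cells, against 355, 311 and 295 in matched cells, a log2 fold of 1.19 ± 0.14 (edgeR adjusted p = 8.54e-10). Top2a, the topoisomerase that untangles chromosomes, had 517, 440 and 524 CPM in high-mt cells, against 208, 162 and 238. Kif11, the spindle motor Eg5, rose by 1.17 ± 0.19 on the log2 scale. In the whole list 8 rose without NP 1 and 12 without OVA 1. With the threshold at 5% in place of 10%, 4 of 50 rose and 6 fell, with a median of 0.03. The 4 that fell, named after their values were seen, were Ccnb2 (log2 fold -0.93), the Cdk-binding Cks1b (-0.56) and Cks2 (-0.52), and Cenpa (-0.45).

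The cycle result depended on which cells the high-mt cells were set against. All high-mt cells together had 4824, 3994 and 4785 UPM of S phase genes, against 5850, 5510 and 5238 in all cells with 10% or less. Set against those cells without matching, 1 of 40 S phase genes rose and 24 fell, with a median log2 fold of -0.56, and 6 of 50 G2 and M phase genes rose and 24 fell, with a median of -0.52. In that comparison 21.9% of 10660 genes were higher and 24.6% lower. These shares apply to every later count against all cells with 10% or less. Of 26 histone genes 6 were higher and none lower there, with a median of 0.28, but Hist1h2ap (-0.29) and Hist1h1b (-0.21), which rose against matched cells, had log2 folds below 0 and missed the threshold. Of 26 dark zone genes 4 rose and 15 fell there, with a median of -0.62. The medians of the S phase, G2 and M phase and dark zone lists thus had opposite signs against the 2 sets of cells with 10% or less.

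**Figure D2:**
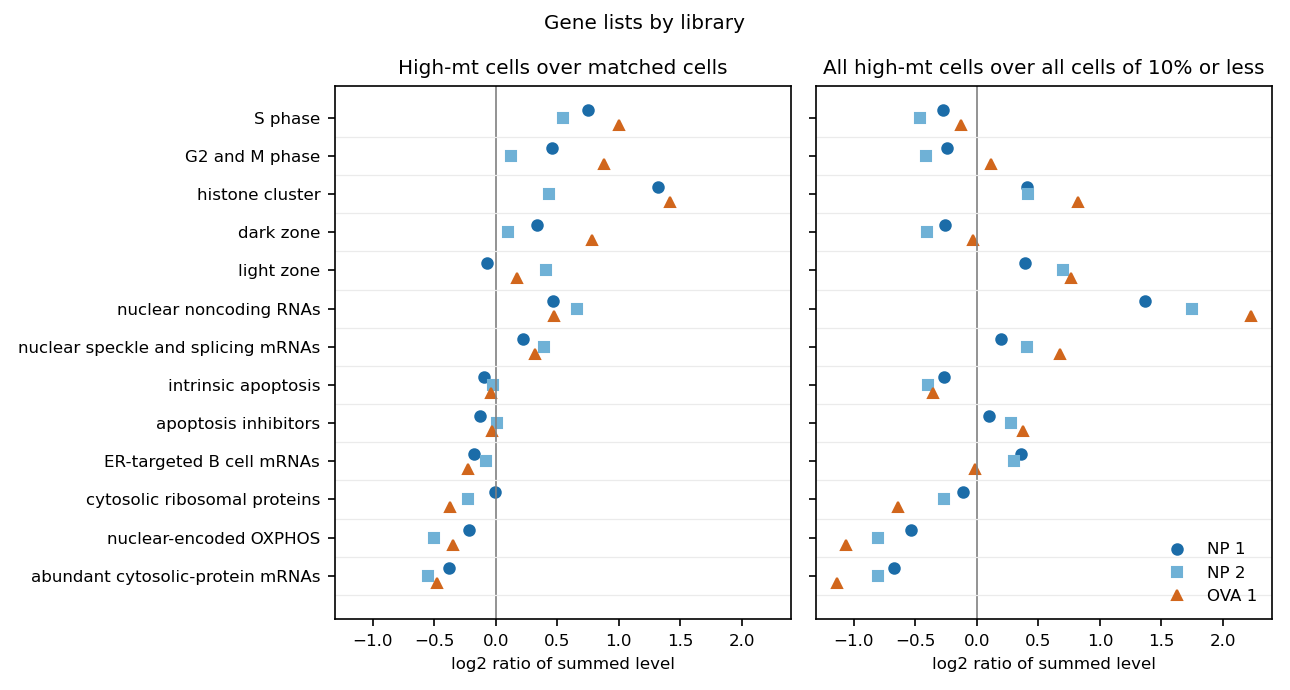
Log2 ratio of the summed level (UPM) of 13 gene lists, as 1 point per library, for high-mt cells over matched cells on the left and all high-mt cells over all cells with 10% or less on the right. S phase lies right of 0 in every library on the left (0.75, 0.55 and 1.01) and left of 0 on the right (-0.28, -0.46 and -0.13), while nuclear noncoding RNAs are above 0 and OXPHOS genes below 0 in both.

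Of 25 tested dark zone genes 7 rose and 3 fell, with a median log2 fold of 0.30. The 7, named after their values were seen, were Cenpf, Kif11, Kif22, Mki67, Nusap1, Plk1 and Top2a, which all act in mitosis or chromosome structure; Nusap1 did not pass without NP 1. Without NP 1, 3 dark zone genes rose and 1 fell, and the median of the list was -0.04 with the threshold at 5% and -0.00 with cells thinned to 500 UMIs. Cxcr4, the receptor that holds cells in the dark zone, had 259, 147 and 83.2 CPM in high-mt cells, against 234, 109 and 94.2 in matched cells, a log2 fold of 0.12 ± 0.16 (edgeR adjusted p = 0.619). Of 24 light zone genes none rose and 3 fell (12.5%, against 13.2% of all genes tested), with a median of -0.01. These were Bcl2a1b (-0.85), the transcription cofactor Lmo2 (-0.46) and the NF-kB inhibitor Nfkbia (-0.43), of which none passed without NP 1 and Lmo2 and Nfkbia did not without OVA 1. Against all cells with 10% or less 6 of 28 light zone genes rose and 5 fell, where 21.9% of all genes were higher and 24.6% lower. The summed light zone level had log2 ratios of -0.07, 0.41 and 0.17 over matched cells in NP 1, NP 2 and OVA 1. Over all cells with 10% or less they were 0.39, 0.70 and 0.77. Cd83, a light zone surface marker, had 427, 420 and 437 CPM in high-mt cells, against 576, 426 and 420 in matched cells (log2 fold -0.16 ± 0.14), and Myc had 24.5, 37.3 and 41.6 CPM, against 27.5, 18.6 and 43.6 (0.04 ± 0.25). The arms overlapped for both.

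None of the 24 tested activators and effectors of intrinsic apoptosis was higher in high-mt cells and 3 (12.5%) were lower, with a median log2 fold of -0.20. Over all tested genes 8.28% were higher and 13.2% lower, so the share of falls was near that of all genes. Bax, which opens the outer mitochondrial membrane, had 133, 112 and 119 CPM in high-mt cells, against 182, 144 and 152 in matched cells. It was lower in all 3 libraries but missed the threshold (log2 fold -0.40 ± 0.15, edgeR adjusted p = 0.0552). The BH3-only genes Bbc3 (0.10 ± 0.30) and Bcl2l11 (0.16 ± 0.20) also missed it, with edgeR adjusted p = 0.84 and 0.629. Those that fell were Cycs, cytochrome c (log2 fold -0.68), Pdcd5 (-0.70) and Pdcd4 (-1.09), which blocks translation initiation. Cycs did not pass without NP 1, and Pdcd4 did not pass without OVA 1. Against all cells with 10% or less 4 of 29 genes of the list rose and 14 fell, with a median of -0.37, and Bcl2l11 was among those that rose (log2 fold 0.67 ± 0.19, edgeR adjusted p = 0.00116).

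Among apoptosis inhibitors, 5 of 12 fell and none rose, with a median log2 fold of -0.24. Bcl10, an NF-kB adaptor, had 56.0, 67.1 and 107 CPM in high-mt cells, against 98.2, 101 and 159 in matched cells (log2 fold -0.68 ± 0.17). Faim fell by 1.02 on the log2 scale. Bcl2a1b (-0.85) and Bcl2a1d (-0.88) are near-identical copies of the survival gene A1, so their split is uncertain. Another, named after its value was seen, was Bcl2 (-1.06). Against all cells with 10% or less 2 of 15 inhibitors rose and 7 fell. Mcl1, on which germinal center B cells depend, had 308, 298 and 211 CPM in high-mt cells, against 375, 298 and 246 (log2 fold -0.19 ± 0.14, edgeR adjusted p = 0.348). Of 16 p53 target genes, 1 rose (6.25%, against 8.28% of all genes tested) and none fell: Ddb2, which recognizes damaged DNA, by 0.81 ± 0.23. Without NP 1, none of Bcl10, Faim, Bcl2a1b, Bcl2a1d and Ddb2 passed, and Ddb2 did not pass without OVA 1 either.

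Calls among stress and response genes are set against the 8.28% of all tested genes that rose and the 13.2% that fell. In the integrated stress and unfolded protein list, Hspa5, the main chaperone of the endoplasmic reticulum (log2 fold 0.49), and Atf4 (0.40) rose and Manf (-0.50) fell, of 15 tested. Among 11 heat shock and mitochondrial chaperone genes Hsp90aa1 rose (0.54) and Hspe1 fell (-0.89). Of 16 immediate early genes Fosb rose (0.81) and 4 fell (25%), and of 14 interferon response genes 4 fell (28.6%) and none rose. The interferon genes that fell were Bst2 (-1.03), Ifi203 (-0.94), Ifi47 (-0.72) and Ifi27l2a (-0.46). Atf4, Manf and Ifi47 passed in no fit that left out a library. Hspa5 and Hsp90aa1 did not pass without NP 1 or without OVA 1, and Fosb did not without NP 1 or without NP 2. Ifi27l2a did not pass without NP 2 or without OVA 1, Bst2 did not without NP 2, and Ifi203 did not without OVA 1.

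**Figure D3:**
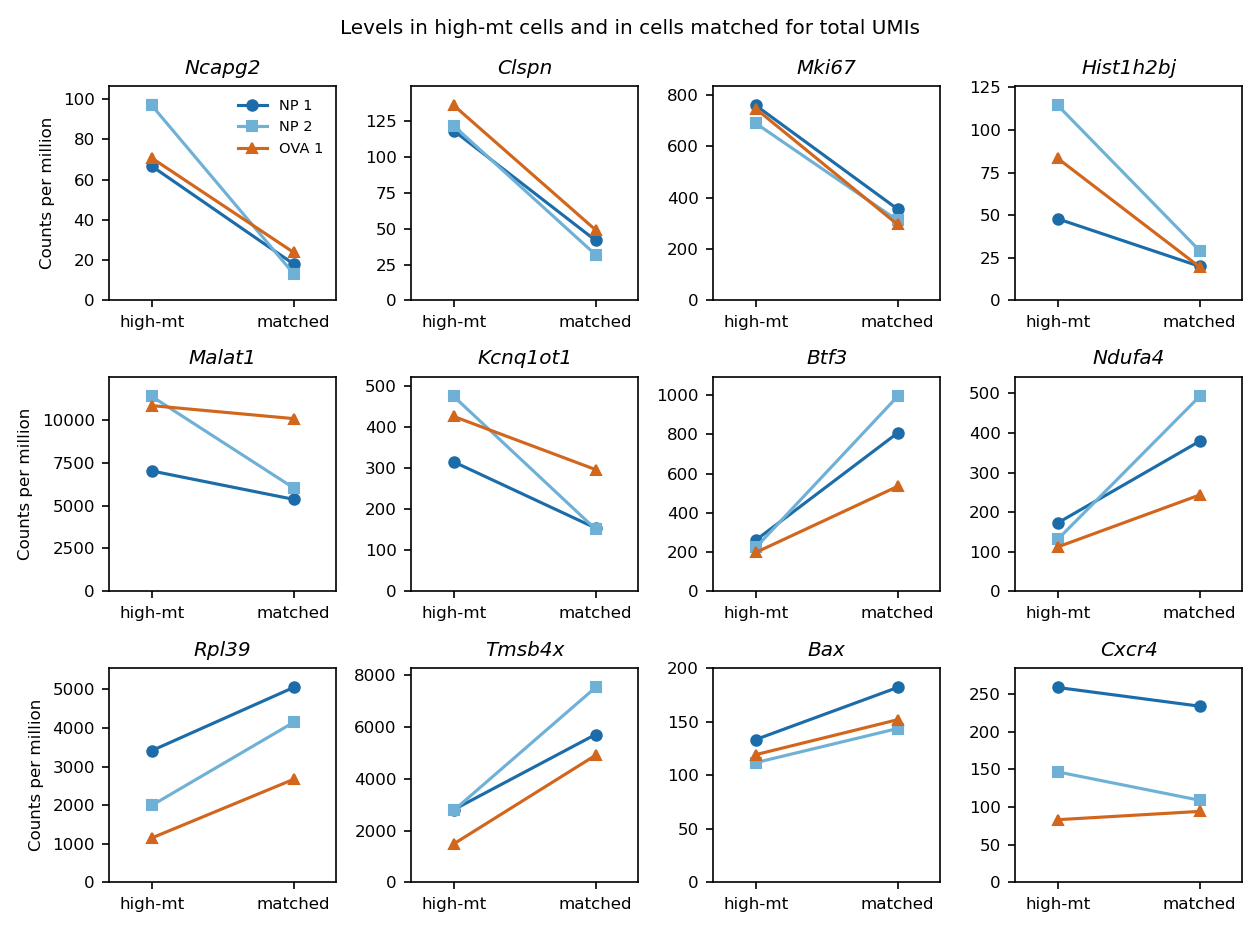
CPM of 12 genes in the summed high-mt cells (left in each panel) and the summed matched cells (right), with a line per library. Ncapg2, Clspn, Mki67 and Hist1h2bj run downward from high-mt to matched cells in all 3 libraries and Btf3, Ndufa4, Rpl39 and Tmsb4x upward, while Bax runs upward less steeply and Cxcr4 runs both ways, and both missed the threshold.

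Messenger RNAs for abundant cytosolic proteins fell in most cases. Of 39 tested, 27 fell and 1 rose, with a median log2 fold of -0.61. Btf3, a factor that binds nascent proteins (chromosome 13, 98309897 to 98317006), had 261, 224 and 198 CPM in high-mt cells, against 806, 992 and 534 in matched cells, a log2 fold of -1.71 ± 0.14 (edgeR adjusted p = 2.16e-14). Ftl1, the ferritin light chain, had 506, 482 and 513 CPM in high-mt cells, against 1149, 1766 and 1362. Tmsb4x, which binds actin monomers, fell to 2813, 2785 and 1490 CPM in high-mt cells, against 5711, 7527 and 4909. The exception that rose, named after its value was seen, was the tubulin gene Tuba1b (0.93).

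Nuclear-encoded genes of oxidative phosphorylation (OXPHOS), the pathway whose other subunits the mitochondrial genome encodes, were lower. Of 77 tested, 50 fell and none rose, with a median log2 fold of -0.54. Ndufa4, a subunit of the respiratory chain, had 173, 132 and 112 CPM in high-mt cells, against 379, 492 and 243 in matched cells, a log2 fold of -1.32 ± 0.15 (edgeR adjusted p = 6.18e-10). Atp5g2 (-1.25) and Atp5l (-1.16), subunits of ATP synthase, and Cox8a of cytochrome c oxidase (-1.11) fell likewise. Without OVA 1, 32 fell and none rose. The level of the mitochondrially encoded genes was part of the rule and gives no comparison with them.

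Ribosomal protein genes of the cytosol fell in 37 cases and rose in 1 (Rps15, 0.50, named after its value was seen) of 71, with a median log2 fold of -0.41. Rpl39 had 3412, 1995 and 1151 CPM in high-mt cells, against 5045, 4141 and 2667 in matched cells. The count that fell was 10 without OVA 1 and 13 without NP 2, and it was 0 with the threshold at 5% (median -0.10) and 0 without the library block (median -0.39). The summed level of the list differed less, at 238004, 217009 and 166561 UPM in high-mt cells, against 239372, 253717 and 214975, and in NP 1 it was nearly equal. Ribosomal protein genes have many processed copies, so the reads assigned to each are uncertain. Of 45 genes of the mitochondrial ribosome and genome expression, 16 fell and 3 rose, with a median of -0.33. Mrps14 (-1.46) and Mrpl36 (-1.40) fell most steeply, and the 3 that rose, named after their values were seen, were Polg, the mitochondrial DNA polymerase (0.80), Lrpprc (0.63) and Mrpl12 (0.42). Without OVA 1, 10 fell and 1 rose.

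Messenger RNAs translated at the endoplasmic reticulum fell in 15 of 33 cases and none rose, with a median log2 fold of -0.38. Ly6d, a surface protein of B cells, had 121, 112 and 107 CPM in high-mt cells, against 324, 484 and 568 in matched cells (log2 fold -1.92 ± 0.16). B2m (-1.23) and H2-Aa, parts of the molecules that present antigen, and Cd52 (-0.99) fell as well. Without OVA 1, 9 fell and none rose. Against all cells with 10% or less 6 rose and 11 fell, with a median of -0.16, and the summed level was 57117, 59665 and 51745 UPM in all high-mt cells, against 44473, 48523 and 52360, so that it was higher in both NP libraries. With cells that had memory or myeloid markers left out, 3 of 27 rose and 4 fell, with a median of 0.03.

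Nuclear RNAs were split. Malat1 had 7011, 11347 and 10816 CPM in high-mt cells of NP 1, NP 2 and OVA 1, against 5362, 6030 and 10059 in matched cells. It was higher in each library, though the OVA 1 values lay close, and the log2 fold was 0.47 ± 0.16 (edgeR adjusted p = 0.0312). It rested on single libraries, with a log2 fold of 0.24 (edgeR adjusted p = 0.616) without NP 2 and 0.65 (edgeR adjusted p = 0.0586) without OVA 1. Kcnq1ot1, a long RNA that stays at its imprinted locus, had 315, 475 and 426 CPM in high-mt cells, against 154, 152 and 297, a log2 fold of 0.99 ± 0.15 (edgeR adjusted p = 6.57e-07). Neat1, the scaffold of paraspeckles, had 50.3, 72.1 and 48.5 CPM in high-mt cells, against 43.1, 71.8 and 75.9, and its arms overlapped (log2 fold -0.10 ± 0.20, edgeR adjusted p = 0.771). Of 11 tested nuclear noncoding RNAs 3 rose, the third being Gm26917 (0.71), and 1 fell, Gm43388 (-0.96), with a median of 0.08. The whole list had 27398, 14200 and 28334 UMIs in high-mt cells of the pairs in NP 1, NP 2 and OVA 1. Malat1 gave 11142, 4567 and 7797 of them, so the summed level also rests on RNAs not named here. Against all cells with 10% or less 9 of 14 rose and 1 fell, with a median of 0.77, and the log2 fold of Malat1 was 1.83 and that of Neat1 1.21. Messenger RNAs of nuclear speckle and splicing proteins rose in 7 of 30 cases and fell in 1, with a median of 0.24. Prpf4b, a splicing kinase, rose by 0.64 ± 0.16 and Nktr by 0.51 ± 0.15, and Hnrnpa2b1 was the one that fell (-0.46). The list had 3 higher without NP 1 and 1 higher without OVA 1. Prpf4b and Nktr did not pass without NP 1 or without OVA 1, Gm43388 did not without OVA 1, and Hnrnpa2b1 did not without NP 2.

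Among the high-mt cells, levels differed with the mitochondrial share, which is given as a description. From 10 to 15%, 15 to 20% and above 20% (575, 226 and 227 cells in NP 1), OXPHOS genes summed to 19497, 16479 and 13264 UPM in NP 1, to 17349, 13852 and 10329 in NP 2, and to 13605, 12176 and 10993 in OVA 1. Ribosomal protein genes declined from 251236 to 123568 in NP 1 between the first and last of these ranges, and ended at 124654 in NP 2 and 122563 in OVA 1. Malat1 stood at 6839, 9784 and 9665 in the 3 ranges in NP 1, at 9592, 14327 and 16431 in NP 2 and at 12604, 16540 and 17627 in OVA 1, so that in NP 1 it did not go up between the last pair of ranges. S phase genes also went up, from 4656 to 5853 in NP 1, from 3623 to 5381 in NP 2 and from 4595 to 5575 in OVA 1.

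**Figure D4:**
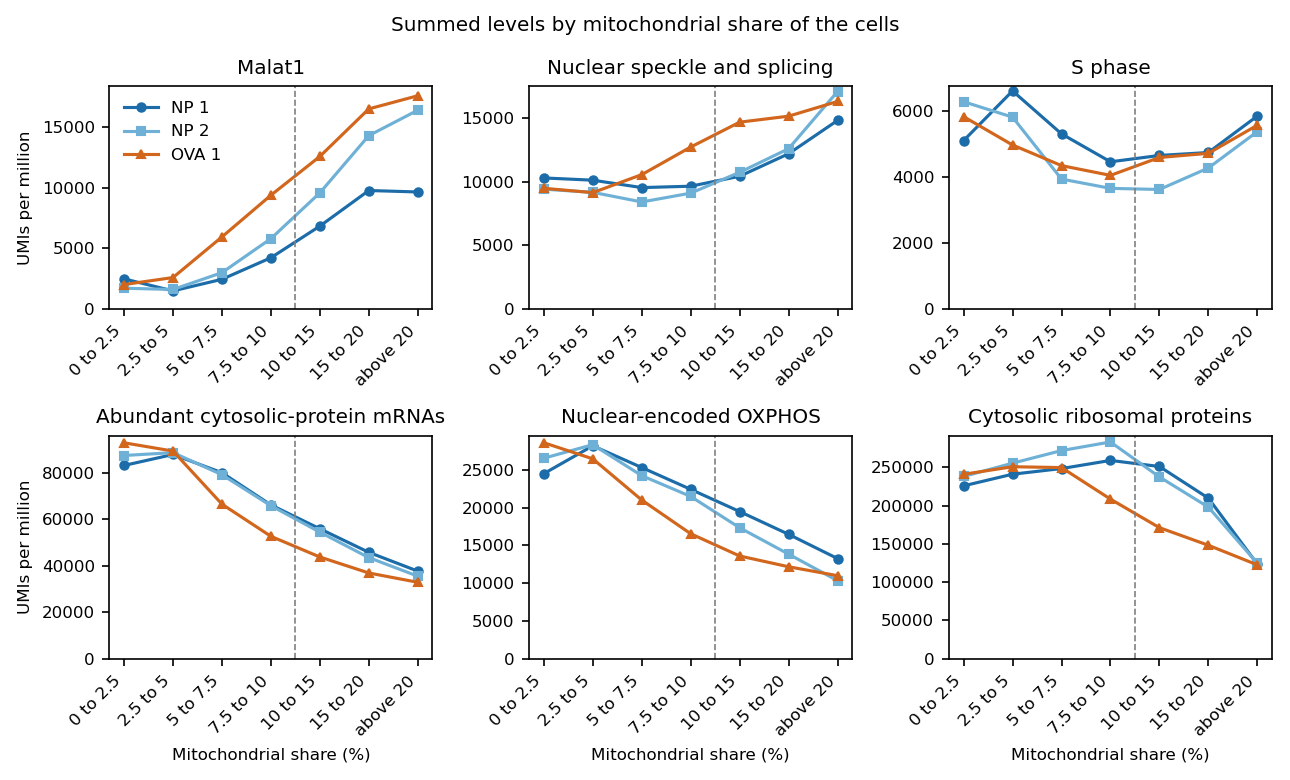
Summed level in UPM of Malat1 and 5 gene lists by the mitochondrial share of the cells, a line per library, with the dashed line at 10%. Malat1 and the speckle genes are higher above 20% than between 7.5 and 10% in each library and the cytosolic and OXPHOS genes lower, while S phase genes are lowest between 7.5 and 15% in each library.

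Of the 12 genes with the largest falls, 3 were on the myeloid marker list and 1 on the list of memory or naive B cell markers. Lyz2 (log2 fold -3.23), Tyrobp (-3.31) and Fcer1g (-2.37) are the myeloid genes, and Ccl5, S100a10 (-3.87), S100a11 (-2.18) and AW112010 (-2.34) were among the 12 as well. These differences rest on few cells. Ccl5 had 1 UMI in the high-mt cells and was at 0 in those of NP 2 and OVA 1, against 295 in the matched cells, of which 196 lay in 1 cell, and its ratio of matched over high-mt cells was 267, with a counting interval of 47.6 to 10584. Lyz2 had 39 UMIs in 10 high-mt cells, against 380 UMIs in 25 matched cells. Klf2, a factor of quiescent and recirculating B cells, had 10.7, 37.3 and 6.94 CPM in high-mt cells, against 55.6, 146 and 78.7 in matched cells (log2 fold -2.46 ± 0.25). Of 9 tested memory or naive B cell markers 6 fell and none rose, with a median of -1.02, among them Cd38 (-1.18) and Ccr6 (-1.78). Summed, the 15 markers of this list reached 1118, 1603 and 1289 UPM in high-mt cells, against 1313, 1450 and 1543 in matched cells, so that NP 2 ran the other way. All high-mt cells had 1196, 1632 and 1439 UPM of the list, against 773, 747 and 828 in all cells with 10% or less. In that comparison 2 of 14 markers rose and 4 fell, and Cd38 (-0.40) and Ccr6 (-0.31) missed the threshold. Klf2 is the memory or naive marker of the 12. Gng10 (-1.99), Sub1 (-1.92), Ly6d and Btf3 complete the 12.

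Of 14 tested germinal center markers Mybl1 was higher (0.51) and Rgs13 lower (-0.85). Each is 7.14% of the list, below the 8.28% of all genes tested that rose and the 13.2% that fell. Mybl1 did not pass without NP 1 or without OVA 1. Of the plasma cell list Jchain (-0.74) and Mzb1 (-1.19) fell, of 8 tested, and Hbb-bt (-1.01) fell as the erythroid gene tested. Lck, the T cell marker tested, missed the threshold (-0.04 ± 0.17), as did the 3 macrophage markers tested (Apoe, Cd68 and Hmox1). With every cell left out that had a UMI of a memory or naive B cell marker or of 5 myeloid genes, 117, 34 and 58 pairs remained, and 99 genes were higher and 159 lower of 1709. There, 14 of 65 OXPHOS genes fell and none rose (median -0.46), 3 of 18 S phase genes rose and none fell (0.45), and the median of the G2 and M phase list was -0.02. This filter was chosen after seeing the data.

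Gene length went with the folds. The 7371 tested genes with a RefSeq gene span in GRCm38.p6 (99.4% of those tested) were cut into 5 equal groups by that span, which includes introns. In the shortest group, from 0.374 to 8.04 kb, 4.68% rose and 27.8% fell, with a median log2 fold of -0.24. In the longest, from 61.1 to 1612 kb, 11.6% rose and 2.78% fell, with a median of 0.20. Within the shortest group 28 of 45 OXPHOS genes fell, and of 6 S phase genes 3 rose. In the G2 and M phase list 11 of 15 genes from 30.7 to 61.1 kb rose and none fell, while none of 11 in the shortest group rose and 3 fell. Its part in the list results was not tested.

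The effect of a high mitochondrial share did not differ detectably between antigens. A test of the difference between OVA 1 and the NP libraries called 0 of 7412 genes with edgeR (0% called), and 226 (3.05%) had an unadjusted p under 0.05, with a smallest adjusted p of 0.692. The fit had 1 OVA library, and the p does not show that the effects were alike.

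Receptor reads were scarcer in high-mt cells. A productive heavy chain was read in 167 of 702 high-mt cells of NP 1 (23.8%), 46 of 223 of NP 2 (20.6%) and 100 of 367 of OVA 1 (27.2%), against 35.9%, 40.4% and 40.3% of the matched cells. The mean difference was -15.0 ± 4.15 percentage points (SD, n = 3 libraries), lower in 3 of 3. The exact two-sided sign-flip permutation test gave p = 0.25, the smallest that 3 libraries allow. A light chain was read in 45.4%, 29.6% and 44.4% of high-mt cells, against 67.4%, 57.4% and 61.6%. The receptor classes below therefore describe the cells in which a chain was read.

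Class switching was not shown to differ. Switched constant regions made up 95 of 163 called heavy chains in high-mt cells of NP 1 (58.3%, exact 95% interval 50.3 to 65.9), 23 of 46 in NP 2 (50.0%, 34.9 to 65.1) and 52 of 100 in OVA 1 (52.0%, 41.8 to 62.1), against 46.8%, 52.8% and 41.1% in matched cells. The mean difference of 6.53 ± 8.09 percentage points was positive in 2 of 3 libraries (exact permutation p = 0.5). IGHG2C took 22 of 163, 13 of 46 and 11 of 100 called chains in high-mt cells, against 12.4%, 21.3% and 7.53%, and was higher in 3 of 3 by 3.83 ± 2.92 points (exact permutation p = 0.25). IGHM took 41.7%, 47.8% and 48.0%, against 50.8%, 43.8% and 58.9%. In the gene libraries, fitted with the immunoglobulin genes kept, Ighg1 (log2 fold 0.46) and Ighg3 (0.43) rose and Ighd (-0.86) and Igha (-0.71) fell, while Ighm stood at 0.00 ± 0.14. Iglc2 (-1.22) and Iglc3 (-1.04) fell, and as near-identical copies their split is uncertain.

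Use of IGHV1-72, which dominates NP responses in C57BL/6 mice, was not shown to differ. It took 94 of 167 heavy chains in high-mt cells of NP 1 (56.3%, 48.4 to 63.9) and 24 of 46 in NP 2 (52.2%, 36.9 to 67.1), against 52.4% and 46.7% in matched cells. In OVA 1 it took 5 of 100 chains in high-mt cells and 6.76% in matched cells. Over the 3 libraries the mean difference was 2.55 ± 3.82 points (exact permutation p = 0.5). IGHV14-3 took 7.19% and 10.9% in high-mt cells of NP 1 and NP 2, against 12.3% and 12.2%. IGHV2-5 took 9 of 100 chains in high-mt cells of OVA 1, against 12.2%, and 0 of 167 in NP 1, which allows a share of up to 1.80% by the limit of 3 counts and has an exact 95% upper bound of 2.18%. Lambda light chains, the usual partners of IGHV1-72, made up 69.0%, 68.2% and 3.07% of light chains in high-mt cells, against 72.3%, 68.0% and 4.42% (mean difference -1.49 ± 1.78 points, exact permutation p = 0.5).

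**Figure D5:**
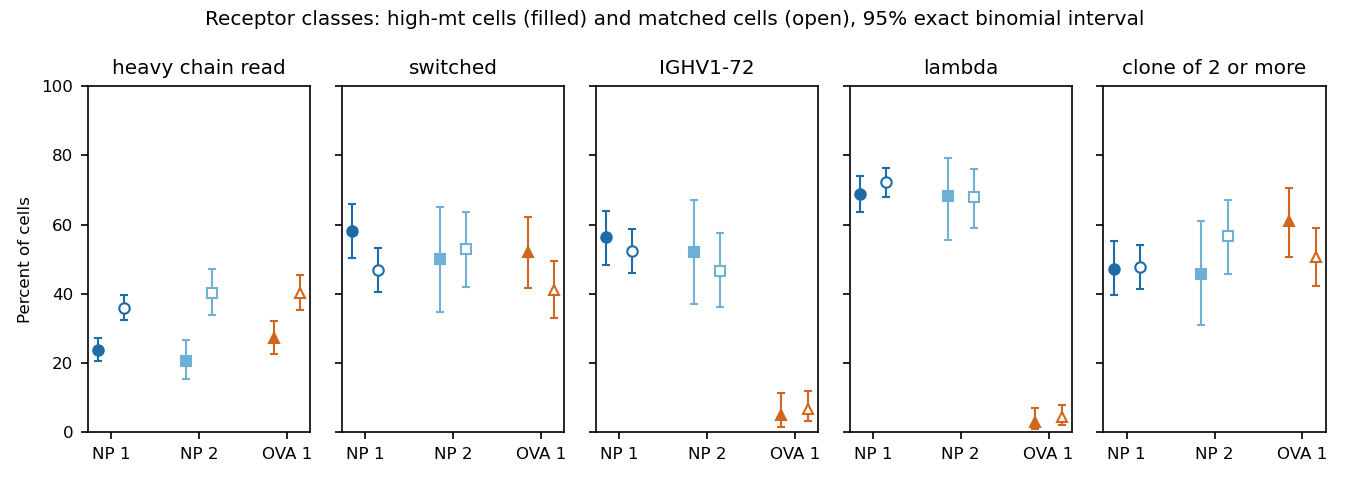
Percent of cells with a heavy chain read, and among cells with a read chain the percent switched, with IGHV1-72, with a lambda light chain and in a clone of at least 2 cells, for high-mt cells (filled) left of matched cells (open) in each library; bars are exact 95% binomial intervals. The heavy chain intervals do not overlap between the arms in any library (for example 20.7 to 27.1% against 32.3 to 39.6% in NP 1), while those of the other measures overlap in all 3.

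Clones were shared between high-mt cells and the rest. A clone was taken as cells with equal V gene, J gene and CDR3 bases, counted over the immunoglobulin library. Of clones with 2 or more cells and a high-mt cell, 79 of 81 in NP 1, 19 of 19 in NP 2 and 60 of 61 in OVA 1 also held cells with 10% or less. A heavy chain was read in only 238, 49 and 129 high-mt cells, against 1658, 1429 and 1873 cells with 10% or less. With so few high-mt cells these clone counts are a description, and no expected share was computed. The share of high-mt cells followed no order in clone size. For cells seen once, in clones of 2 to 3, 4 to 7 and 8 or more cells it was 13.0%, 11.9%, 13.2% and 11.2% in NP 1, 3.28%, 2.73%, 4.29% and 3.17% in NP 2, and 6.02%, 6.91%, 7.72% and 6.12% in OVA 1. These shares are over all cells with a heavy chain. Clones of 2 or more cells held 47.3%, 45.7% and 61.0% of high-mt cells with a heavy chain, against 47.6%, 56.7% and 50.7% of matched cells (mean difference -0.33 ± 10.7 points, exact permutation p = 0.75).

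The heavy chain CDR3 of the clone with most high-mt cells and of the largest clone of each library are printed as examples. Cells of a clone share them to the base by the definition of a clone above. They are coding sequences as read by the authors, 5′ to 3′, from the conserved cysteine codon to the tryptophan codon, and capitals mark the fourth codon, which is tyrosine (TAT) in many anti-NP receptors. The first clone of NP 1 held 5 high-mt cells among 12 (exact 95% interval 15.2 to 72.3%), and its largest held 3 among 37.
NP 1, most high-mt cells, IGHV1-72 with IGHJ2: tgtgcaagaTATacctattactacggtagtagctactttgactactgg
NP 1, largest, IGHV14-2 with IGHJ2: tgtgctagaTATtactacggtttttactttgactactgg
NP 2, most high-mt cells, IGHV1-53 with IGHJ1: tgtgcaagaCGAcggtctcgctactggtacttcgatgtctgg
NP 2, largest, IGHV1-72 with IGHJ1: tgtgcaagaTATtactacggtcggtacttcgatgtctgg
OVA 1, most high-mt cells, IGHV3-6 with IGHJ2: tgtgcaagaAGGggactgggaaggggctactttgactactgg
OVA 1, largest, IGHV2-5 with IGHJ4: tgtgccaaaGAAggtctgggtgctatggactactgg

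The 2 clones of NP 2 held 2 high-mt cells among 8 and 1 among 31, and those of OVA 1 held 5 among 25 and 1 among 43. In IGHV1-72 chains the fourth codon was tyrosine in 72 of 94 high-mt cells of NP 1 (76.6%, 66.7 to 84.7) and 21 of 24 of NP 2 (87.5%, 67.6 to 97.3), against 70.5% and 73.8% in matched cells. The intervals of the 2 arms overlapped in both libraries.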

How the data were processed

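Single cells of mouse spleen were captured with the 10x 5′ chemistry. Cell Ranger with build mm10 is named in the submitters' processing notes, and its version, the cell filters and doublet removal are not stated there. The gene table deposited by the authors holds raw UMI counts (8873 cells, 14407 genes, 16161435 to 21412501 UMIs per library, at least 498 UMIs a cell), and the deposited contig tables hold UMI counts per receptor contig. The bulk heavy chains were not used.

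The threshold of 10%, the genes and the lists were chosen with earlier results of these data known. High-mt cells were paired without replacement, in seeded random order, with the cell of nearest log2 total UMIs within 0.2, which left 326, 23 and 221 high-mt cells of NP 1, NP 2 and OVA 1 without a partner. The 13 mt- and 225 immunoglobulin genes were left out. The sums went into the quasi-likelihood test of edgeR 4.0.16 under R 4.3.3, with TMM, filterByExpr, library as a block because both arms came from the same library, and Benjamini-Hochberg adjustment, after a check on simulated data. The fit had 2 residual degrees of freedom and a median of 60.6 prior ones, which come from the spread pooled over genes. DESeq2 1.42.0 was an alternative. Named genes were the 12 largest rises and falls past the threshold with a mean of at least 20 CPM and 1 direction in 3 libraries, up to 4 of smallest p per list, and 11 by name, of which 1 is not reported here. No doublet caller was run; cells with 2 productive heavy chains were left out as an alternative. Shares were tested by exact sign-flip permutation over libraries. Python 3.11.15, numpy 2.4.6, scipy 1.17.1 and pandas 2.3.3 were used.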

Additional observations from a re-analysis of the deposited data

Results flagged for a closer look

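Some differences between high-mt and matched cells ran one way in both NP libraries and the other way in OVA 1. The difference between antigens was not tested for them, and OVA is 1 library. In percentage points, in OVA 1 against NP 1 and NP 2, they were 7.62 against -1.28 and -6.89 for the IGHG1 share, -2.05 against 8.00 and 0.76 for IGHG3, -1.76 against 3.91 and 5.51 for IGHV1-72, and 1.00 against -5.12 and -1.35 for IGHV14-3. For cells in clones of 2 or more they were 10.3 against -0.31 and -11.0, and for clones of 8 or more 4.05 against -3.88 and -11.4. The summed level of the 14 macrophage markers had a log2 ratio of -0.34 in OVA 1, against 0.04 and 0.39. Apoe made up most of these sums, and the other 13 had 51.9 UPM in high-mt cells and 195 in matched cells of OVA 1, 38.3 and 38.9 in NP 1, and 32.2 and 107 in NP 2.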

How the results depend on the processing

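The main fit called 1594 genes (614 higher and 980 lower). The alternatives gave 416 (68 and 348) with DESeq2 and 487 (150 and 337) with cells thinned to 500 UMIs. For cells above 20% the count was 435 (116 and 319), and without memory or myeloid markers 258 (99 and 159). It was 4961 (2337 and 2624) without matching and 4456 (2165 and 2291) matched on mitochondrial UMIs. With cells left out that had 2 or more UMIs of markers of other cell types, it was 577 (146 and 431). That filter left 270, 98 and 220 pairs in NP 1, NP 2 and OVA 1. Its markers included Apoe, which was found in 766 high-mt and 697 matched cells of the main pairs. Without a library the count ranged from 737 to 1380, with 186 to 559 higher and 551 to 821 lower. Without the library block, which pairs the arms, it was 228 (57 and 171), and the test between antigens called 0 with or without it and 0 when matched on other UMIs. In the other settings, among them RLE scaling, no low-count filter, 500 genes, 5%, pairs within 0.05, another order and shared barcodes left out, it stayed between 1136 and 1592. Counts of single lists moved more. With the threshold at 5%, 14 S phase genes rose, and 14 OXPHOS, 10 abundant cytosolic and 5 mitochondrial ribosome genes fell. With DESeq2, 8 S phase and 6 G2 and M phase genes rose, and 27 OXPHOS and 23 cytosolic genes fell. Without the library block, 8 S phase genes rose, and 12 OXPHOS and 7 cytosolic genes fell.

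Of 91 called genes named, 81 kept their direction in every alternative that gave them a value. Turned without matching were Cdca5 (-0.20), E2f8 (-0.26), Hist1h1b (-0.21), Hist1h2ap (-0.29), Hsp90aa1 (-0.43), Ifi203 (0.11), Lig1 (-0.24) and Nusap1 (-0.52). Matched on mitochondrial UMIs, E2f8 (-0.0038), Hist1h1b (-0.22), Hist1h2ap (-0.12), Hsp90aa1 (-0.27), Ifi203 (0.12), Lig1 (-0.12) and Nusap1 (-0.40) turned, and without memory or myeloid markers Hist1h1b (-0.12), Nfkbia (0.084) and Zfp36 (0.19). The cause was not tested. Receptor differences that turned were switched (-0.49 points) and IGHV1-72 (-3.92) matched on mitochondrial UMIs, IGHV1-72 without matching (-4.02), lambda above 20% (6.00), and clones of 2 or more without matching (0.49), with 2 heavy chains left out (1.23), matched on mitochondrial UMIs (1.80) and without a library (-5.66 to 5.01, the upper one without NP 2). The matchings on mitochondrial UMIs and within 0.05, the order, the shared barcodes and the memory or myeloid filter were chosen after seeing the data. The few UMIs per high-mt cell and the 3 libraries limit what low genes can show.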
